A study of Mus musculus with 12 samples.

Results

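Levels of 10 transcripts of the circadian clock were followed in mouse osteoclasts, the multinucleated cells that resorb bone. They are the activators Arntl and Clock, the nuclear receptors Nr1d1, Nr1d2 and Rora, the output factors Dbp, Tef and Nfil3, and the repressors Bhlhe40 and Bhlhe41. These genes were taken by name from a table of 55806 genes, and the set was drawn up with earlier results of these data known. The cultures were monocytes from the bone marrow of mice 8 to 12 weeks old, differentiated with M-CSF and RANKL, which support the precursors and turn them into osteoclasts, and harvested at day 4. All groups shared this treatment, and 3 libraries each were labelled male Per2 control, male Per2 knockout, female Per2 control and female Per2 knockout, 1 from each of batch 1, 2 and 3. Names of the knockout libraries carry the letters cKO, which commonly stand for a conditional knockout. The strain, the driver of the deletion, the cells in which Per2 was deleted, the alleles of the controls, the number of mice behind a library and the hour of collection were not stated in the sources used. Per2 is the gene named on every sample, whereas the series is titled for PER1, and the groups are called here as the samples are.

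In female cultures Bhlhe40 and Clock were lower and Nfil3 was higher in the knockouts than in the controls, and in male cultures none of the tested clock genes passed the threshold. Bhlhe40 fell by 19% of its mean, from 57.2 ± 1.05 to 46.3 ± 1.71 FPKM (SD, n = 3 each), and Nfil3 rose 1.46-fold, from 4.55 ± 0.356 to 6.64 ± 0.389. FPKM is the number of fragments scaled by the length of the gene and by a total for the library. Changes are given as log2 differences of FPKM + 1, which understates the change of genes with low values, and adjusted p-values come from limma over the 12102 genes that reached FPKM of 1 in 3 or more libraries. Of the 10 clock genes 9 were in this test, and Rora fell under the filter. Among all genes tested 49.8% passed the threshold of 0.05 in the female knockout comparison, beside 3 of the 9 clock genes. No gene passed it in males, a share of 0%, with 822 genes at an unadjusted p under 0.05. The model of the difference between the female and the male knockout effect called 34.6% of all genes, 17.9% with a higher and 16.7% with a lower effect in females, and 1 of the 9 clock genes, Bhlhe40, which was lower.

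The clock is a loop of transcription. The proteins CLOCK and BMAL1, the product of Arntl, bind E-boxes and drive Per and Cry genes, whose products then inhibit them. A second loop joins the nuclear receptors: RORA activates and REV-ERB alpha and beta, the products of Nr1d1 and Nr1d2, repress genes with a ROR element, Arntl and Nfil3 among them. DBP and TEF activate and NFIL3, also called E4BP4, represses genes with a D-box. BHLHE40 and BHLHE41, also called DEC1 and DEC2, compete with CLOCK and BMAL1 at E-boxes. In the macrophage and osteoclast lineage NFIL3 and both DEC proteins also act outside the clock, in cytokine responses and differentiation.

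Promoter stretches that hold letters of these elements are shown for the clock genes to which they belong, because the loops are described by these elements. Windows from 250 bases before to 50 bases after the start were taken from RefSeq on build GRCm38.p6, counting the first transcribed base as +1, and 9 of the 10 genes had at least 1 window, 13 windows in all. The gene without a window was Bhlhe40, whose promoter was therefore not searched. Capitals mark the matched letters. In Nfil3 the capitals are the reverse complement of the ROR element TAGGTCA, with their first base at −12, on the minus strand at chr13:52981040-52981099.
Nfil3: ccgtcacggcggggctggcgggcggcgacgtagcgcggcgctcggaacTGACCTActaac
In Arntl the same element starts at +31 of one of its starts, on the plus strand at chr7:113207530-113207559.
Arntl: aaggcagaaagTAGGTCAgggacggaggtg
The E-box CACGTG lies at −127 and at −138 of separate starts of Tef, on the plus strand at chr15:81802519-81802578 and chr15:81811249-81811308.
Tef, first start: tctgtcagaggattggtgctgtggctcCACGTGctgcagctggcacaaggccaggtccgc
Tef, second start: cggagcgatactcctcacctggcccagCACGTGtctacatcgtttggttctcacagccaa
In Bhlhe41 it lies at −153, on the minus strand at chr6:145865541-145865600.
Bhlhe41: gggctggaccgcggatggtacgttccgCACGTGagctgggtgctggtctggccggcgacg
The search covered both strands for CACGTG, which is its own reverse complement, for TAGGTCA and TGGGTCA, and for the D-box letters TTATGTAA and TTACGTAA, and none of these motifs shares all its letters with another. Of 32851 promoter windows of the same length 7.15% held the E-box, 6.45% a ROR element and 1.06% a D-box. No D-box letters lay in the windows of the clock genes. A match is a string of letters and not a measured site.

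Reads assigned to genes numbered 13888150 to 17762190 per library, except male knockout replicate 2 with 41145397. Per2 itself was at 0.579, 0.721 and 0.701 FPKM in male controls and 0.466, 0.39 and 0.23 in male knockouts, a ratio of 0.54 without overlap (exact permutation test, two-sided p = 0.1, which is the lowest possible for 3 against 3). Male groups of 12.3% of all genes in the limma test, which left out Per2, were apart in the same way. Per2 rested on only 18 to 86 reads per library over all groups. Female libraries had 0.331, 0.53 and 0.368 in controls and 0.258, 0.204 and 0.589 in knockouts, which overlapped, with a ratio of 0.86 (exact p = 0.6). With this overlap the level of Per2 in females does not separate the libraries labelled knockout from those labelled control. The deleted exons are not given, and a value per gene cannot show loss of part of a transcript. The cause of the overlap was not tested. The osteoclast genes Ctsk, Mmp9 and Acp5 had means of 1930 to 5020 FPKM in every group, and none of the 11 osteoclast markers was at 0 in all 12 libraries.

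Levels of the clock genes spanned a wide range. Bhlhe40 stood highest in all 12 libraries, and 10.3% of the tested genes had a higher mean FPKM. In male controls Nfil3 came next with 8.57 ± 2.27 FPKM (SD, n = 3), then Nr1d2 with 5.06 ± 0.398. Tef with 3.58 ± 0.214 and Bhlhe41 with 3.45 ± 0.0775 overlapped each other, and Clock with 3.13 ± 0.155 lay below both. Dbp with 1.37 ± 0.187, Nr1d1 with 1.19 ± 0.0572 and Arntl with 1.13 ± 0.13 overlapped. Rora was lowest with 0.696 ± 0.0507. In female controls the order changed: Nr1d2 with 6.05 ± 0.602 FPKM stood above Nfil3 with 4.55 ± 0.356, and Clock with 3.98 ± 0.158 stood above Tef with 3.37 ± 0.119 and Bhlhe41 with 2.75 ± 0.181. Nr1d1 overlapped Dbp there, and Arntl overlapped Rora. The reads behind a value ran from 2616 to 6983 for Bhlhe40 and from 141 to 655 for Nfil3, but only from 55 to 121 for Nr1d1 and from 56 to 140 for Dbp, so counting error weighs most on Nr1d1 and Dbp.

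**Figure D1:**
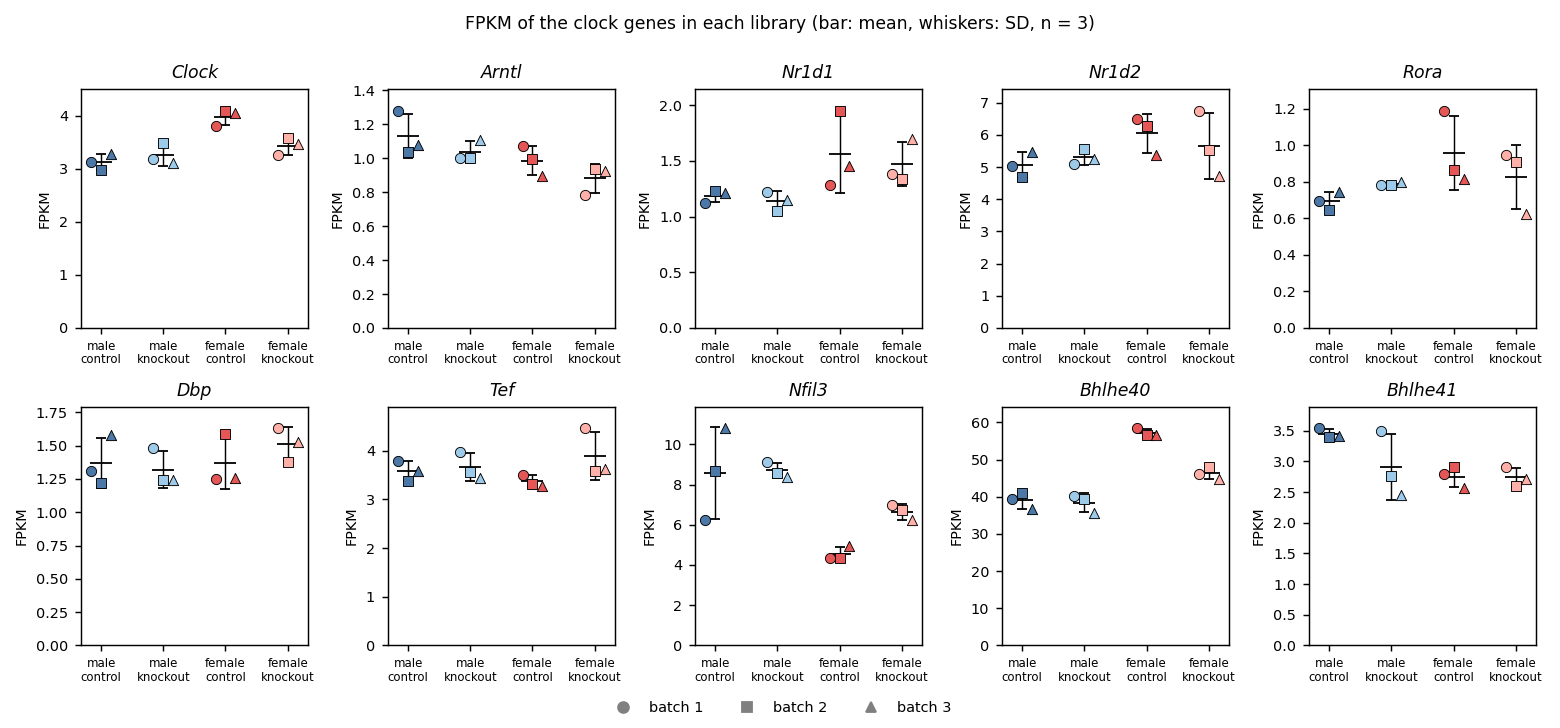
FPKM (vertical axis, from 0) of each of the 10 clock genes in the 12 libraries by group, with bars at the mean and whiskers of 1 SD (n = 3). Circles, squares and triangles mark batch 1, 2 and 3. Bhlhe40 and Nfil3 show control females apart from all other libraries, high for Bhlhe40 (56.5 to 58.4 FPKM) and low for Nfil3 (4.33 to 4.96), while Dbp overlaps between all groups.

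Of the activators, Clock was at 3.13, 2.97 and 3.28 FPKM in control males, 3.18, 3.49 and 3.10 in knockout males, 3.80, 4.09 and 4.05 in control females and 3.25, 3.57 and 3.47 in knockout females. All female controls lay above all other libraries, and the other groups overlapped. Clock fell by 0.17 (log2, SE 0.06, 95% interval −0.29 to −0.05) in female knockouts, limma adjusted p = 0.0264, and the differences within batch 1, 2 and 3 were −0.18, −0.16 and −0.18. This call was lost without female control replicate 2 (adjusted p = 0.0816) or 3 (0.0736), and without female knockout replicate 1 (0.0945) or 3 (0.0504). In males the difference was 0.04 (−0.08 to 0.17), adjusted p = 0.942. The female minus the male effect was −0.21 (−0.39 to −0.04), adjusted p = 0.0579, and without male control replicate 3 it was −0.24 with 0.0491. Between the controls Clock was higher in females by 0.27 (0.15 to 0.39), adjusted p = 0.00142, and by 0.22, 0.36 and 0.24 within the batches. Clock overlaps the processed pseudogene Ube2n-ps1 on the same strand, which had group means of 3.22 to 5.33 FPKM. The share of reads that belongs to Clock is therefore uncertain.

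Arntl, whose protein is the partner of CLOCK, was at 1.28, 1.04 and 1.08 FPKM in control males, 1.00, 1.00 and 1.11 in knockout males, 1.07, 0.995 and 0.896 in control females and 0.782, 0.936 and 0.925 in knockout females. The values overlapped in the knockout comparisons and between the controls, and between the knockouts the females lay below the males. Knockout groups of the sexes were apart for 48.9% of all tested genes. No test called it: the female knockout difference was −0.08 (log2, −0.27 to 0.11) with limma adjusted p = 0.476, and the sex difference was −0.10 (−0.29 to 0.09) in controls and −0.12 (−0.31 to 0.08) in knockouts. The ratio of Clock to Arntl within a library, which does not depend on how the library was scaled, was 2.45 to 3.49 in the 6 male libraries and 3.54 to 4.52 in the 6 female libraries, without overlap. This ratio and the others below were chosen after the values were seen and carry no test.

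Among the nuclear receptors, Nr1d1, the gene of REV-ERB alpha, was at 1.12, 1.23 and 1.21 FPKM in control males, 1.22, 1.05 and 1.15 in knockout males, 1.28, 1.95 and 1.45 in control females and 1.38, 1.34 and 1.70 in knockout females. All female libraries lay above all male ones. Over all tested genes the sexes were apart for 64.9% between the controls and for 48.9% between the knockouts. The sex difference did not pass in controls (log2 0.22, −0.01 to 0.45, limma adjusted p = 0.0917) or in knockouts (0.21, −0.02 to 0.44, adjusted p = 0.143). In controls it passed with the reads assigned to genes as the denominator (0.34, adjusted p = 0.012) and without female control replicate 1 (0.30, 0.0386). The knockout differences were −0.03 (−0.26 to 0.19) in males and −0.04 (−0.27 to 0.19) in females. Nr1d1 overlaps Thra on the opposite strand, a gene at 2.88 to 3.76 FPKM as group means, and without a stated strand setting reads in the overlap cannot be assigned to either gene.

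Nr1d2, the gene of REV-ERB beta, was at 5.03, 4.68 and 5.48 FPKM in control males, 5.11, 5.55 and 5.24 in knockout males, 6.51, 6.28 and 5.37 in control females and 6.75, 5.54 and 4.71 in knockout females. The female knockouts were spread more widely than any other group, and all groups of a comparison overlapped. The knockout difference was −0.09 (log2, −0.31 to 0.14) in females, limma adjusted p = 0.495, and 0.06 (−0.17 to 0.28) in males. Between the controls Nr1d2 was 0.22 higher in females (−0.01 to 0.44), adjusted p = 0.0884, which became 0.0438 without female control replicate 3. The adjusted p was 0.0367 without female knockout replicate 1 and 0.0447 without female knockout replicate 3, with the difference still at 0.22. Those knockout libraries enter this value only through the shared estimate of the spread and the set of genes tested. With the assigned reads as the denominator the difference was 0.40 (0.00498), with voom 0.47 (0.00144) and with libraries rescaled to their protein-coding genes 0.51 (0.000944). Nr1d2 was 4.27, 4.69, 4.01 and 3.93 times Nr1d1 within a library, as means of control males, knockout males, control females and knockout females.

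Rora, which codes for an activator at the same elements as the REV-ERB repressors, was at 0.695, 0.646 and 0.747 FPKM in control males, 0.786, 0.785 and 0.799 in knockout males, 1.19, 0.867 and 0.815 in control females and 0.949, 0.91 and 0.624 in knockout females. It did not reach FPKM of 1 in 3 libraries and was not among the genes tested. The male groups did not overlap, with the knockouts higher (exact permutation test, two-sided p = 0.1, the smallest possible), nor did the controls of both sexes, with females higher (exact p = 0.1). Male groups of 12.3% of all tested genes, and controls of 64.9%, were apart in the same way. Female knockouts overlapped female controls (exact p = 0.6). In the limma fit without a filter the adjusted p of Rora was 0.981 for the male and 0.575 for the female knockout effect and 0.18 for the sex difference in controls.

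Of the output factors that act at the D-box, the activator Dbp was at 1.31, 1.22 and 1.58 FPKM in control males, 1.48, 1.24 and 1.24 in knockout males, 1.25, 1.59 and 1.26 in control females and 1.63, 1.38 and 1.53 in knockout females. All 4 groups overlapped, and 92.8% of the tested genes had a wider range of group means. Its female knockout difference was 0.09 (log2, −0.12 to 0.29), limma adjusted p = 0.463. Dbp overlaps Sphk2 on the opposite strand, a gene with group means of 17.6 to 27.4 FPKM, so the share of reads that belongs to Dbp is uncertain.

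Tef, the other activator of this family measured here, was at 3.79, 3.37 and 3.58 FPKM in control males, 3.98, 3.56 and 3.43 in knockout males, 3.51, 3.32 and 3.28 in control females and 4.46, 3.59 and 3.63 in knockout females. The female knockouts lay above the female controls, 1 of them by a wide margin. The difference of 0.16 (log2, −0.01 to 0.32) did not pass, limma adjusted p = 0.1, and it passed with batch as a block (adjusted p = 0.037), with 0.28, 0.09 and 0.11 within batch 1, 2 and 3. Tef was 2.64, 2.77, 2.5 and 2.57 times Dbp within a library in control males, knockout males, control females and knockout females.

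Nfil3, the repressor at the D-box, was at 6.25, 8.68 and 10.8 FPKM in control males, 9.14, 8.59 and 8.38 in knockout males, 4.35, 4.33 and 4.96 in control females and 6.98, 6.72 and 6.22 in knockout females. Female controls were the lowest libraries, knockout females lay between them and the knockout males, and control males were spread more widely than any other group. In females Nfil3 rose by 0.46 (log2, SE 0.14, 0.16 to 0.76) in the knockouts, limma adjusted p = 0.0149, and by 0.58, 0.54 and 0.28 within the batches. In males the difference was 0.05 (−0.25 to 0.35), adjusted p = 0.978, with 0.49, −0.01 and −0.33 within the batches. The female minus the male effect of 0.42 (−0.01 to 0.84) did not pass, adjusted p = 0.116, and without male control replicate 1, the lowest of its group, it was 0.60 with adjusted p = 0.0037.

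Between the controls Nfil3 was lower in females by 0.76 on the log2 scale (log2 −0.76, SE 0.14, −1.06 to −0.46), limma adjusted p = 0.000494, a ratio of means of 0.53, and the differences within the batches were −0.44, −0.86 and −0.98. Between the knockouts the difference was −0.35 (−0.64 to −0.05), adjusted p = 0.0714, and −0.35, −0.31 and −0.38 within the batches. That value passed without male control replicate 1 (0.00756) or 3 (0.0187), libraries that enter it only through the shared estimate of the spread. Nfil3 was 2.41 ± 0.697 times Tef in control males and 2.39 ± 0.0759 times in knockout males, against 1.35 ± 0.141 in control females and 1.72 ± 0.154 in knockout females (SD, n = 3).

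The repressors at the E-box differed from each other. Bhlhe40 was at 39.5, 41.1 and 36.6 FPKM in control males, 40.2, 39.4 and 35.6 in knockout males, 58.4, 56.5 and 56.6 in control females and 46.0, 48.1 and 44.8 in knockout females. The male groups overlapped, all knockout females lay above the male libraries, and all control females lay above the knockout females. Bhlhe40 fell by 0.30 (log2, SE 0.06, −0.42 to −0.18) in female knockouts, limma adjusted p = 0.00108, with −0.34, −0.23 and −0.33 within batch 1, 2 and 3. Under quantile normalization the fall was larger (−0.47, adjusted p = 0.000111). The male difference was −0.02 (−0.15 to 0.10), adjusted p = 0.97, with 0.02, −0.06 and −0.04 within the batches.

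The knockout effects on Bhlhe40 in females and males differed by −0.27 (log2, SE 0.08, −0.45 to −0.10), limma adjusted p = 0.0194. Between the controls Bhlhe40 was higher in females by 0.54 (0.42 to 0.66), adjusted p = 7.49e-06, and between the knockouts by 0.26 (0.14 to 0.39), adjusted p = 0.0042. Within the batches the sex difference was 0.55, 0.45 and 0.62 in controls and 0.19, 0.28 and 0.32 in knockouts. The female knockout effect and the sex difference in controls share the female control libraries, so their opposite signs are not separate observations.

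Bhlhe41, the paralogue of Bhlhe40, was at 3.54, 3.40 and 3.42 FPKM in control males, 3.50, 2.77 and 2.46 in knockout males, 2.79, 2.91 and 2.56 in control females and 2.91, 2.60 and 2.72 in knockout females. Male controls lay above every female library, and male knockouts reached from their level to below the females. In females the knockout difference was −0.00 (log2, −0.19 to 0.19), limma adjusted p = 0.979. In males it was −0.20 (−0.39 to −0.00), with an unadjusted p = 0.0454 from limma, the only clock gene under 0.05 there, and an adjusted p = 0.727. Within the batches the male differences were −0.01, −0.22 and −0.35. Female controls were lower than male controls by 0.25 on that scale (log2 −0.25, −0.44 to −0.06), adjusted p = 0.0282, with −0.26, −0.17 and −0.31 within the batches. The call did not hold with the assigned reads as the denominator (−0.09, 0.396), and the value was 0.01 (0.925) when libraries were rescaled to their nuclear protein-coding genes. It was also lost without male control replicate 1 (0.0728), 2 (0.0535) or 3 (0.0549) and without female control replicate 1 (0.0535) or 3 (0.0941).

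**Figure D2:**
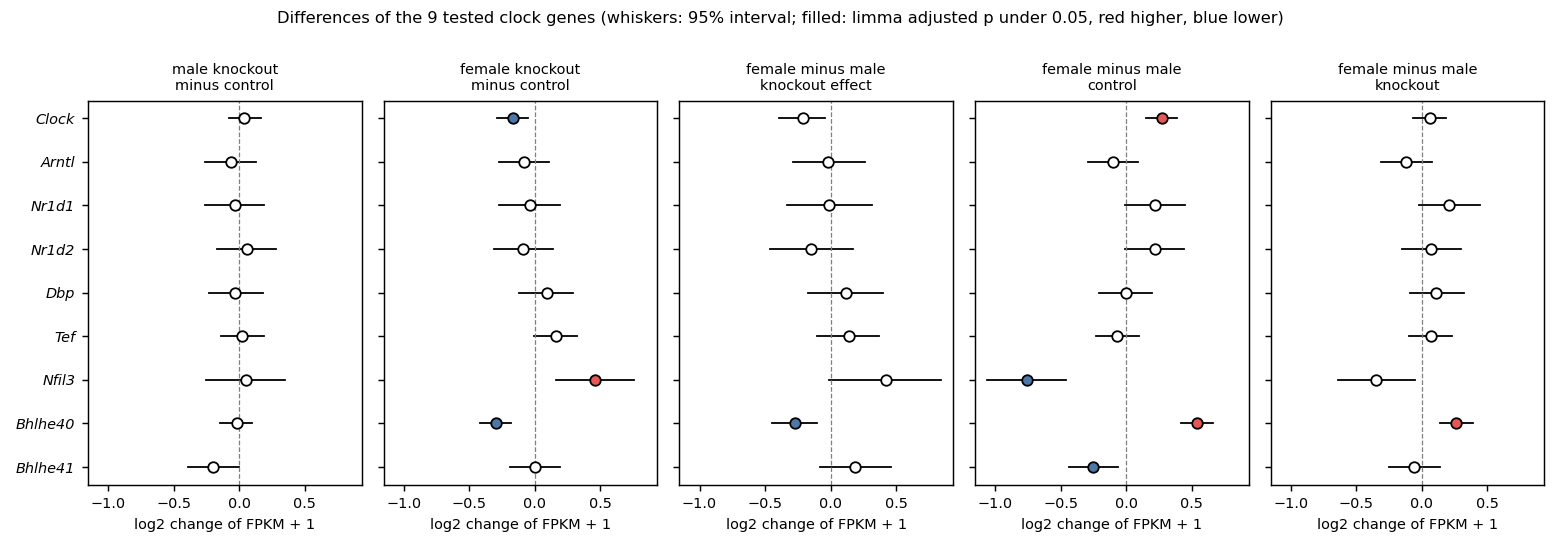
Log2 difference of FPKM + 1 (horizontal axis) of the 9 tested clock genes in 5 comparisons, with whiskers for the 95% interval. Filled points have a limma adjusted p under 0.05, red higher and blue lower: none in males, Clock, Nfil3 and Bhlhe40 in females, and Bhlhe40 in each of the other comparisons, joined by Clock, Nfil3 and Bhlhe41 between the controls.

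By comparison, 0 of 9 clock genes passed in males, where voom on recovered reads also called 0 of them, and 3 in females, 1 higher and 2 lower, against 24.9% higher and 24.9% lower over all genes. Between the controls 4 of 9 passed, 2 higher and 2 lower in females, where 60.3% of all genes passed, 29.5% higher and 30.7% lower. That split was 4 higher and 1 lower with the assigned reads as the denominator or with voom, and 5 higher and 1 lower with libraries rescaled to their protein-coding genes. Between the knockouts only Bhlhe40 passed, and it was higher in females, where 33.5% of all genes passed, 13.1% higher and 20.4% lower. The female knockouts and controls did not overlap for Clock, Tef, Nfil3 and Bhlhe40, and they were apart in this way for 58.5% of all genes tested. Female and male knockouts did not overlap for Arntl, Nr1d1, Nfil3 and Bhlhe40, and were apart for 48.9% of all genes tested. The median difference of the 9 genes was −0.02 (log2) in males and −0.04 in females, beside 0.01 and −0.01 over all genes tested. In range of group means Nfil3 spanned 0.81 on the log2 scale, with 15.8% of the tested genes wider, and Bhlhe40 spanned 0.56, with 29% wider. The other 7 tested clock genes spanned 0.11 to 0.27, and at least 64.8% of the tested genes were wider than each of them.

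The authors' scaling differed between the groups: the library total behind FPKM differed from the reads assigned to genes, which were 0.936 to 0.9478 of it for control females, 1.007 to 1.017 for knockout females and 1.075 to 1.105 for males. Rescaling every library to its nuclear protein-coding genes moved the median of all genes from −0.01 to −0.17 (log2) in the female knockout comparison and from 0.00 to 0.28 between the controls. Of the genes called in females, 50.1% were higher as deposited and 24.4% after this rescaling, and between the controls 49% and 77.7%. A change of scale moves genes with high values nearly alike, but genes with low values less, because 1 is added to FPKM. Differences are also given less the median of all genes. For a low gene such as Arntl this does not take the scale off fully, so its value still shifts with the scaling. After the rescaling the female knockout difference less that median was −0.31 for Bhlhe40 (−0.29 as deposited), 0.48 for Nfil3 (0.47) and −0.15 for Clock (−0.16). Between the controls it was 0.59 for Bhlhe40 (0.54 as deposited), −0.75 for Nfil3 (−0.76), 0.26 for Clock (0.27), −0.27 for Bhlhe41 (−0.25) and −0.21 for Arntl (−0.10). Under quantile normalization, which is not a single factor per library, Bhlhe40 was at −0.42 less the median in the female knockout comparison and at 0.72 between the controls. Before the median was taken off, the sex difference of Arntl in controls, which did not pass, turned from −0.10 to 0.08 (adjusted p = 0.468) with the protein-coding rescaling.

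Ratios between clock genes within a library are free of this scaling. Nfil3 was 0.221 ± 0.069 of Bhlhe40 in control males, 0.227 ± 0.00873 in knockout males, 0.0796 ± 0.00701 in control females and 0.143 ± 0.00731 in knockout females (SD, n = 3). Female controls lay between 0.0746 and 0.0876, knockout females between 0.139 and 0.152 and control males between 0.158 and 0.295, so these groups did not overlap. Bhlhe40 was 11.3 ± 0.704 times Bhlhe41 in control males, 13.4 ± 1.67 times in knockout males, 20.8 ± 1.36 times in control females and 16.9 ± 1.42 times in knockout females.

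**Figure D3:**
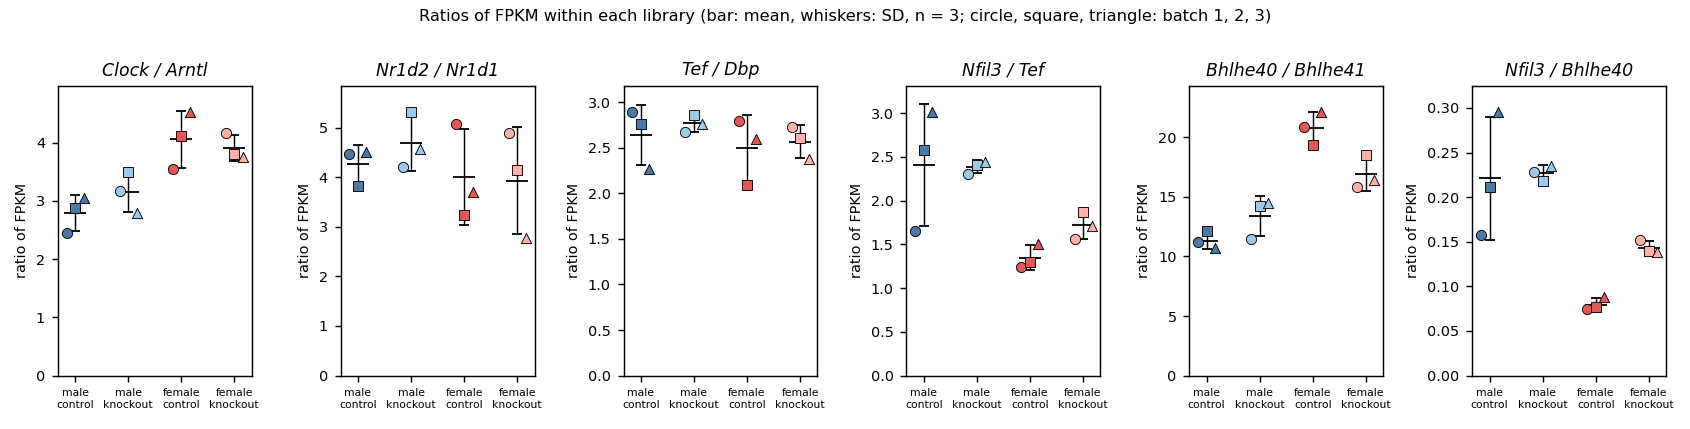
Ratio of the FPKM of a pair of clock genes within each library (vertical axis, no unit) by group, with bars at the mean, whiskers of 1 SD (n = 3) and symbols for the batch. Nfil3 over Bhlhe40 is 0.0746 to 0.0876 in control females and 0.139 to 0.152 in knockout females, below the control males, while Tef over Dbp overlaps between the groups.

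The genes whose pattern over the 12 libraries was most like that of Nfil3, by the root mean square difference of centred log2 values among tested protein-coding genes, were Leng9 (0.096), Zfp429 (0.103) and Capn1 (0.103). Capn1, a gene of a calcium-dependent protease, had means of 26.5, 26.5, 15.1 and 21 FPKM in control males, knockout males, control females and knockout females. The genes most like Bhlhe40 were Rpl13a (0.027), which codes for a ribosomal protein, Noa1 (0.046) and Jade1 (0.052). Rpl13a had means of 12.8, 12.7, 19.4 and 15.3 FPKM in the same order. Rpl13a belongs to a family with many near-identical pseudogenes, so its level is uncertain.

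The rest of the clock was read from lists that, like the 10 genes themselves, were chosen with earlier results of these data known. No gene of any list passed in males as deposited. With the assigned reads as the denominator, with voom and after rescaling to protein-coding genes, 1 REV-ERB target and 1 macrophage marker were called lower. The lists of targets and of macrophage markers share genes, so both counts can stand for the same gene. Of 7 period, cryptochrome and related repressors 4 were tested, and 2 were higher in female knockouts, with a list median of 0.15 (log2). Timeless rose from 6.71 ± 0.44 to 9.44 ± 0.784 FPKM (log2 0.44, limma adjusted p = 0.00151), and Per1 from 2.86 ± 0.27 to 3.61 ± 0.288 (0.26, 0.0446). The Per1 call held in 3 of 6 scalings, the deposited one included. Cry1 and Cry2, the cryptochrome repressors, did not pass (0.04 with 0.702, and 0.01 with 0.918), and their sign turned under other scalings.

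Of 10 paralogues and partners of the activators and output factors 5 were tested, and all passed in females, 3 higher and 2 lower, with a median of 0.13 (log2). Cebpb, a factor that binds sites like the D-box, had means of 91.7, 87.3, 39.1 and 72.2 FPKM in control males, knockout males, control females and knockout females, a female rise of 0.87 (limma adjusted p = 1.75e-05). Mybbp1a, the gene of a corepressor that binds MYB and PER2, had 27.8, 26.8, 58.4 and 34.5 FPKM, a female fall (log2 −0.74, 4.13e-06). Usf1, an E-box factor, rose by 0.51 (0.000121), and Cebpa fell (−0.29, 0.0181). Npas2, Arntl2, Rorb and Hlf, close relatives of the clock genes described here, were among those under the filter.

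Of 17 kinases, ligases and deacetylases that act on clock proteins 15 were tested, and 2 were higher and 4 lower in female knockouts, with a median of −0.06 (log2), but 0 higher and 10 lower after rescaling to protein-coding genes. Huwe1, a ubiquitin ligase, fell (−0.26, limma adjusted p = 0.000978), as did Csnk2a1 (−0.19, 0.0036), a casein kinase subunit, and Sirt1 (−0.19, 0.0261), a deacetylase, whose call held in 5 of 6 scalings. Csnk2b, the other casein kinase subunit, was higher (0.21, 0.0046), a call that held in 2 of 6 scalings. Of 14 corepressors and coactivators of the clock 2 were higher and 7 lower, with a median of −0.12, and 0 were higher and 10 lower after the same rescaling. Wdr5 (−0.40, 2.92e-05) and Kmt2a (−0.34, 0.00169), of histone methyltransferase complexes, fell, as did Sfpq (−0.42, 0.000254), a partner of PER complexes. Ep300, a histone acetyltransferase, was higher as deposited (0.17, 0.00531), ranged from −0.00 to 0.19 over the scalings and was called in 3 of 6.

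Among 20 tested genes of 21 that are rhythmic in many tissues, 8 were higher and 6 lower in female knockouts, with a median of 0.14 (log2), and 5 and 9, with a median of −0.03, after rescaling to protein-coding genes. Tspo, a mitochondrial outer membrane protein, had means of 604, 606, 160 and 372 FPKM in control males, knockout males, control females and knockout females, a female rise of 1.21 (limma adjusted p = 3.83e-07). Slc16a1, a lactate transporter, had 7.37, 7.39, 20.0 and 8.85 FPKM, a female fall (log2 −1.09, 3.25e-07). Nampt, the enzyme that salvages nicotinamide for NAD, rose by 0.81 (3.73e-06), and Pfkfb3, a regulator of glycolysis, by 0.88 (7.07e-06).

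Genes reported elsewhere as targets of these factors were counted too, without a test of any link to them. Of 8 REV-ERB targets of macrophages 7 were tested, and 5 were higher and 2 lower in female knockouts, with a median of 0.77 (log2). The chemokine gene Ccl2 had means of 149, 154, 2.25 and 48.0 FPKM in control males, knockout males, control females and knockout females (female change 3.88, limma adjusted p = 1.53e-06), and the cytokine gene Il1b 26.8, 26.7, 1.88 and 16.4 (2.62, 1.45e-06). Abca1, a cholesterol exporter, rose by 0.92 (4.46e-07), and Nlrp3, of the inflammasome, by 0.77 (6.54e-06). All 8 targets of BHLHE40, BHLHE41 and NFIL3 in immune cells were tested, and 5 were higher and 1 lower, with a median of 0.59: the lipopolysaccharide receptor Tlr4 rose by 0.63 (1.97e-05), Id2, an inhibitor of helix-loop-helix factors, by 0.62 (3e-05) and the M-CSF receptor Csf1r by 0.28 (4.85e-05). The Csf1r call held in 4 of 6 scalings. Genes of these lists such as Cx3cr1 and Csf1r are also among the macrophage markers, and Mmp9 among the osteoclast markers.

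Immediate early genes, which respond fast to stimuli, were higher in 14 and lower in 2 of 17 tested, of 20 listed, with a median of 0.79 (log2). Egr1, a zinc finger factor, had means of 11.4, 8.18, 1.57 and 21.7 FPKM in control males, knockout males, control females and knockout females, a female rise of 3.14 (limma adjusted p = 5.54e-09). Zfp36, which destabilises cytokine mRNAs, rose by 1.71 (4.81e-09), Dusp1, a phosphatase of MAP kinases, by 1.63 (4.04e-08) and Ier2 by 1.45 (9.4e-08). Between the controls 15 of the 17 were lower and 1 higher in females.

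**Figure D4:**
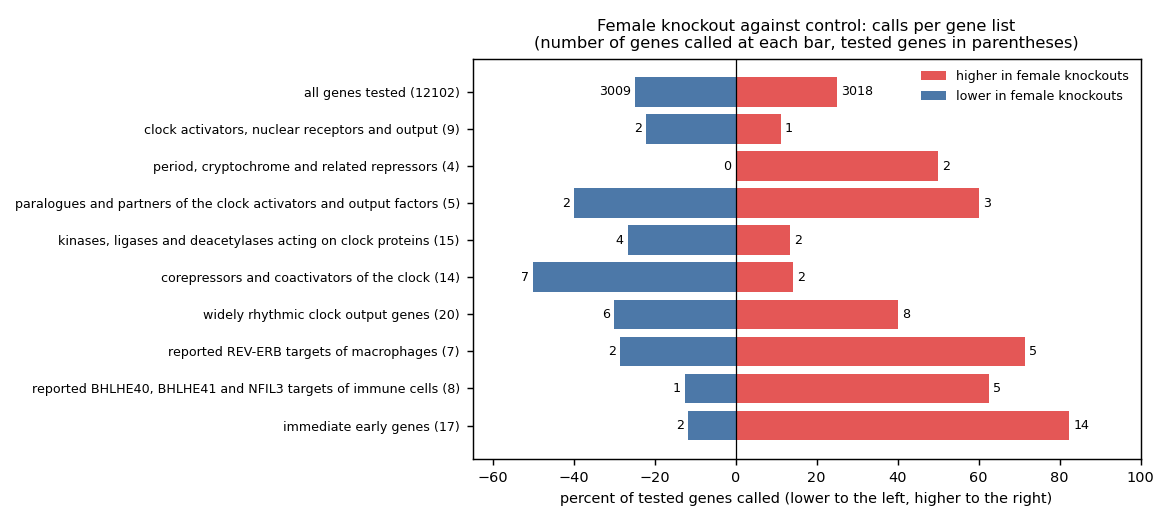
Share of the tested genes of each list (horizontal axis, percent) called higher (red, right) or lower (blue, left) in female knockouts than in female controls, with the number called at each bar. The 9 tested clock genes show 1 higher and 2 lower, and the 17 immediate early genes 14 higher and 2 lower, beside 3018 and 3009 over all 12102 genes.

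Markers of some other cells also differed between these groups. In a bulk culture fewer cells of a type and less RNA per cell cannot be told apart. The summed FPKM of 15 markers of monocytes and macrophages was 13400 to 16300 in control males, 14100 to 14900 in knockout males, 7220 to 8950 in control females and 12500 to 13700 in knockout females. Of the 14 tested, 13 were higher and 1 lower in female knockouts, and all 14 were lower in female than in male controls. Adgre1, the gene of the macrophage antigen F4/80, had means of 400 ± 14.7, 420 ± 29.4, 83.4 ± 3.75 and 304 ± 29.8 FPKM in control males, knockout males, control females and knockout females. Lyz2 and Cd68, also of macrophages, stood at 7170 and 548 FPKM in control females and at 11000 and 773 in knockout females. Female controls, in which Nfil3 was lowest and Bhlhe40 and Clock highest, were thus also the libraries with the lowest macrophage sum, and the part of these markers in the results on the clock genes was not tested.

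The summed FPKM of the 11 osteoclast markers was 8270 to 9490 in control males, 8340 to 9350 in knockout males, 8830 to 9770 in control females and 10500 to 12800 in knockout females, with 5 of 11 higher and 1 lower in knockout females. That count was 3 and 1 with the assigned reads as the denominator, and 1 and 1 under quantile normalization or after rescaling to protein-coding genes. Dendritic cell markers summed to 119 to 162, 134 to 161, 65.2 to 68.9 and 85 to 101 FPKM in the same order of groups, with 2 of 6 tested higher and 2 lower in female knockouts, and neutrophil markers to 3080 to 5220, 3560 to 4440, 2350 to 2540 and 2280 to 2960, with 0 of 8 called. Markers of B, T and NK cells summed to 4.59 to 11, 3.39 to 10.3, 15 to 23.9 and 3.13 to 5.42 FPKM, and all 3 tested were lower in female knockouts, the B cell genes Cd79a and Ms4a1 among them. Mast cell and basophil markers summed to at most 48.4 FPKM in any library, with 2 of 5 tested lower in female knockouts. Stromal, osteoblast and endothelial markers summed to 18 to 37.5 FPKM in control males and 8.56 to 11.6 in knockout males, without overlap, and to 6.83 to 28.8 in control females and 6.89 to 17.1 in knockout females. Of the 7 tested, 0 passed in males, with 5 at an unadjusted limma p under 0.05 and a median of −1.18 (log2), and 1 was lower in knockout females. Erythroid and stem cell markers summed to at most 13 FPKM, with 0 of 3 called in females. No marker of any list was at 0 in all 12 libraries. The part of these cells in the results on the clock genes was not tested.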

How the data were processed

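RNA sequencing of 12 mouse osteoclast libraries was read from 1 table with 55806 genes. The authors deposited FPKM values, fragments per length and library total. HISAT2 2.0.5, featureCounts 1.5.0-p3 and the build mm10 were used, per the submitters' processing notes. Neither the strand setting nor the library total used for FPKM was stated in the sources used. Only 2.87% of 52080 shared gene identifiers had the same position in the GRCm38 annotation, so no coordinates of the table are given. Every FPKM was multiplied by gene length and divided by a step estimated for each library from the same values. The results were whole reads within 0.01, and depth and alternatives with reads rest on these. The library total behind FPKM was derived from that step. Columns without a sample numbered 0, and 1 line without a gene was left out.

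Limma 3.58.1 in R 4.3.3, with a trend in the prior variance, was fitted to log2(FPKM + 1) of the 12102 genes that reached FPKM of 1 in 3 or more libraries, using 4 group means, no block and 11 total degrees of freedom. Two-sided p-values were adjusted over all genes tested by the Benjamini-Hochberg method, at a threshold of 0.05. Every adjusted p is from this fit unless another is named. Rora and Per2 were compared with exact permutation tests. The labels number the libraries as biological replicates and do not say whether each came from a separate mouse, so a p-value reflects how these libraries varied. The fit was tested on simulated data.

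Libraries with the same number share a labelled batch, which pairs them across groups. Deviations of such libraries from their group means had a correlation of 0.021 on average over 18 pairs (−0.118 to 0.092), and those of libraries with different numbers −0.011 over 36 pairs (−0.160 to 0.184). Batch as a block was an alternative, beside other pseudocounts, filters, scalings and left-out libraries.

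The 10 clock genes and the lists were chosen with earlier results of these data known. Named are the 10 genes, Per2, from each clock list up to 4 tested genes with the smallest p in females, from the marker lists some of the 3 with the highest FPKM, and the 3 protein-coding genes most like each of the 2 tested clock genes with the widest range. Some genes that this rule reached are not reported here. Overlapping genes are named where they bear on a value.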

Additional observations from a re-analysis of the deposited data

Results flagged for a closer look

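Of the clock genes described, Bhlhe40 had a knockout effect that differed between the sexes by the interaction test, with a female minus male effect of −0.27 (log2, limma adjusted p = 0.0194). Over all genes tested 34.6% differed in this way. Groups of 3 libraries were not examined for single outlying samples.

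Further clock-related genes differed likewise, with a limma adjusted p of at most 0.0119 each. They had been named for a small p in the female knockout comparison, whose libraries this test shares, so it gives no separate support. Named genes that did not pass this test are left out here. Female minus male effects were 0.47 for Timeless, −0.69 for Mybbp1a, 0.94 for Cebpb and 0.49 for Usf1 on the log2 scale. Among modifiers and cofactors of clock proteins the values were −0.36 for Huwe1, −0.33 for Csnk2a1, 0.33 for Csnk2b, −0.35 for Wdr5, −0.40 for Sfpq and −0.47 for Kmt2a. Rhythmic output genes had −1.09 for Slc16a1, 1.20 for Tspo, 0.69 for Nampt and 0.77 for Pfkfb3.

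The reported REV-ERB targets had 0.90 for Abca1, 2.57 for Il1b, 3.85 for Ccl2 and 0.77 for Nlrp3. Reported targets of BHLHE40, BHLHE41 and NFIL3 had 0.48 for Tlr4, 0.61 for Id2 and 0.37 for Csf1r. The immediate early genes had 1.85 for Zfp36, 3.58 for Egr1, 1.65 for Dusp1 and 1.73 for Ier2.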

How the results depend on the processing

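The number of clock genes called stayed within 1.5 times its value in 102 combinations of comparison and setting and left that range in 12. Differences of single genes kept their side of the threshold in 956 such combinations, which include differences without a call that changed sign. They gained a call in 24 and lost one in 14. In 2 the sign changed where 1 of the fits had a call, counted here as reversed. In males none of the clock genes tested was called under any setting run. In females 3 were called, 2 to 3 when 1 library was left out, and Clock was also lost with no filter (adjusted p = 0.0574) or median-ratio rescaling (0.052). With batch as a replicate block 4 were called in females, Tef being added (0.037), and the block gave 0 in males, 1 for the difference of knockout effects, 4 between controls and 1 between knockouts, so it changed no other count.

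For the difference of knockout effects 1 was called, 2 with assigned reads as denominator, with voom on recovered reads and with libraries rescaled to protein-coding genes, where Clock was added, and 1 to 2 when 1 library was left out. Between the controls 4 were called, 2 with a filter of FPKM 5, where fewer clock genes were tested, 5 with assigned reads or voom, 6 with rescaling to protein-coding genes, and 3 to 5 when 1 library was left out. Between the knockouts 1 was called, 2 with the libraries of that comparison alone (Nfil3, adjusted p = 0.0054), 3 with voom and with rescaling to protein-coding genes, where Clock and Nr1d1 were added, and 1 to 2 when 1 library was left out. Tef and Bhlhe41 reversed between the controls under rescaling to protein-coding genes, to 0.20 (log2, 0.0428) and 0.01 (0.925), and Nr1d1 (0.42, 0.00337) and Nr1d2 (0.51, 0.000944) were called. The causes of these changes were not tested. Bhlhe40 kept its calls in every alternative run, with −0.48 to −0.27 in females, −0.46 to −0.23 for the difference of effects and 0.49 to 0.87 between controls. The voom fit and the rescaling were added after seeing the data, and the planned count models were not run. Nr1d1 and Dbp rest on 55 to 140 reads per library, which limits what could be detected.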
